A study of Homo sapiens with 51 samples.

Results

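The STEAP metalloreductases are a small family of membrane proteins that pass electrons across the membrane to ferric iron and cupric copper. The family was taken as the symbols STEAP1, STEAP1B, STEAP2, STEAP3 and STEAP4, and was chosen by the measured change of STEAP1, whose transcripts fell strongly with OVOL2 over 3 pancreatic cancer cell lines. Of the 5 members, 4 had a row among the 25421 gene symbols of the count table, and STEAP1B is not analysed here. That reason does not name the arm, with or without the transactivator M2rtTA, so the STEAP1 change with OVOL2 is given as a description with no test in both arms. Comparisons of STEAP1 in the mCherry libraries, which the choice may also have used, are given in the same way. The arm with M2rtTA, in which STEAP1 was known to be among the most negative genes, is a description for every member. STEAP2, STEAP3 and STEAP4 were not chosen for a change of their own and were tested in the arm without M2rtTA, with earlier results of these data known.

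Transcripts were counted by PLATE-seq, in which cDNA of each well is barcoded and then pooled, in 51 libraries of 5 human pancreatic ductal adenocarcinoma (PDA) cell lines. Of these, KP4, PANC1 and PK45H had 15 libraries each, in 5 groups of 3: untreated cells, cells transduced with a lentivirus carrying the open reading frame of mCherry (a fluorescent protein, the negative control) or of OVOL2 (a zinc-finger transcription factor of epithelial cells), and both again together with M2rtTA, the transactivator of tetracycline-inducible promoters. The transduced groups, controls included, had 8 µg/ml polybrene, a multiplicity of infection of 2, and from the next day 2.5 µg/ml puromycin and 0.6 µg/ml doxycycline, and RNA was taken after 6 days in culture. HPAFII and PATU8988S had 3 untreated libraries each. The labels do not give the promoter of the transgenes. Transductions were done in triplicate, and nothing says that untreated replicates came from separate cultures, so p-values measure the spread between these libraries, which may be technical.

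Ferric iron that reaches a cell on transferrin is taken into endosomes, reduced to the ferrous form and then exported to the cytosol, where ferritin stores it. STEAP3 is the reductase of that step in erythroid cells. STEAP2, STEAP3 and STEAP4 each join a cytosolic domain that takes electrons from NADPH to a transmembrane domain that holds heme, whereas STEAP1 lacks the NADPH domain and is thought to work together with other members. STEAP1 and STEAP2 are known as surface antigens of prostate cancer, and STEAP4 is known from adipose tissue and from inflammation.

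Library totals were 1165399 to 7490556 counts (median 4771717), and HPAFII replicate 2 had the lowest. The label was first checked on the targeted gene: the 9 OVOL2 libraries without M2rtTA held 54 OVOL2 counts in sum against 56 in the 9 mCherry libraries, and those with M2rtTA held 178 against 42. OVOL2 counts thus did not tell the libraries labelled OVOL2 from those labelled mCherry without M2rtTA, and throughout, "OVOL2 libraries" means libraries that carry that label. Transcripts of epithelial identity did differ between the same libraries without M2rtTA: CDH1 (E-cadherin) was higher by 2.49 on the log2 scale and EPCAM by 2.19, while ZEB1, a repressor of epithelial genes, fell by 2.64 and the filament gene VIM by 1.85, each past the threshold of a Benjamini-Hochberg adjusted p of 0.05 in edgeR's quasi-likelihood test. With counts sampled down to the lowest library total, CDH1 no longer passed (1.73, adjusted p = 0.0709). The ductal markers KRT7, KRT8, KRT18, KRT19 and SOX9 summed to 612.1 to 13648 CPM (counts per 1000000, scaled with TMM factors) over the libraries. The 5 leukocyte markers summed to at most 5.79 CPM, and the 3 endothelial markers to at most 13.7 CPM.

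In the GRCh38.p14 annotation of RefSeq, STEAP1 (gene ID 26872) is at chr7:90154469-90164827 on the plus strand. STEAP2 (261729) follows it at chr7:90211740-90243408, also on the plus strand, after a gap of 46913 bp. STEAP4 (79689) is on the minus strand of the same chromosome, at chr7:88270892-88306894, and STEAP3 (55240) is at chr2:119223834-119265652 on the plus strand. STEAP1B (256227), the near copy of STEAP1, is at chr7:22419444-22500188 on the minus strand.

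The start regions of STEAP1 and STEAP1B are shown because they are nearly alike and because they differ at an E-box. Each runs 5′ to 3′ in the direction of its gene, from 250 bases before to 50 bases after the RefSeq start, and capitals mark CAGGTG, the E-box bound by ZEB and SNAI repressors. The start region of STEAP3, the other member that was lower in OVOL2 libraries, is shown for comparison and holds no such match.
STEAP1, chr7:90154219-90154518, plus strand: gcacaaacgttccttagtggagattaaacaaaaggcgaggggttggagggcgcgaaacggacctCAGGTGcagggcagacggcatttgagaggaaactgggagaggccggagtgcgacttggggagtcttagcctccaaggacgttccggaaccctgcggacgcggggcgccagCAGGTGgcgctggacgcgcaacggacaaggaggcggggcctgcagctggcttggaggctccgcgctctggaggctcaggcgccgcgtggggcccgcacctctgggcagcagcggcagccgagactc
STEAP1B, chr7:22500139-22500438, minus strand: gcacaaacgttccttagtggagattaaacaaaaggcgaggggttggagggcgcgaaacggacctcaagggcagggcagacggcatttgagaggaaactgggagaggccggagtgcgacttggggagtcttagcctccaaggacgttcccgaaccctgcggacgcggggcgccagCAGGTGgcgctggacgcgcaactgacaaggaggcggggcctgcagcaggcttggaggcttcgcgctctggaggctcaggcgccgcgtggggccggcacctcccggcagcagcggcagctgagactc
STEAP3, chr2:119223584-119223883, plus strand: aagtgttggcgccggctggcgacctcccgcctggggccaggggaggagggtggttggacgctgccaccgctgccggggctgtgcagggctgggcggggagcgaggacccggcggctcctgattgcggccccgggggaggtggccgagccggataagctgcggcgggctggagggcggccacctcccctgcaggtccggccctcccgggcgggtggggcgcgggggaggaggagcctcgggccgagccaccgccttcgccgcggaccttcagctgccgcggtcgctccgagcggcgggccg

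STEAP1 and STEAP1B were identical at 290 of 300 aligned bases (96.7%), against 46.1% to 49.7% for STEAP1 aligned with STEAP2, STEAP3 or STEAP4. CAGGTG, or its reverse complement CACCTG, stood at 2 positions of the STEAP1 window, −186 and −76 relative to the start. The STEAP1B window held 1, at −76. The windows of STEAP2 (both RefSeq starts), STEAP3 and STEAP4 held 0 matches. Of 35116 RefSeq windows of this length, 20.6% held at least 1 match and 3.49% held 2 or more. CCGTTA, the core letters bound by OVO proteins, and its reverse complement TAACGG were in 0 of the members' windows and in 3.07% of all windows. These matches describe letters in a window, and binding was not measured.

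The likeness of STEAP1 and STEAP1B also bears on their counts. Of the 1622 runs of 31 bases in the STEAP1 transcripts of GENCODE, 544 (33.5%) also occur in STEAP1B transcripts, but 0 of the 270 in the last 300 bases of the longest coding STEAP1 transcript do. PLATE-seq reads come from the end of the transcript, but reads from further upstream could be shared, so the STEAP1 row remains uncertain to that extent. STEAP2-AS1, an antisense RNA that spans STEAP1, held 19 counts in all 51 libraries together, and STEAP3-AS1 held 14. Strand use in counting is not given in the sources used here.

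Across the 17 groups, group means of STEAP1 ranged from 0.682 CPM to 47.8 CPM, and those of STEAP2 from 7.55 to 76.4 CPM. STEAP3 ranged from 14.7 to 71.7 CPM and STEAP4 from 1.76 to 9.87 CPM. STEAP1 was at 0 in 1 library and STEAP2, STEAP3 and STEAP4 were counted in every one. Counts behind these values were low: STEAP4 had 6 to 41 counts per library, STEAP1 0 to 251, STEAP2 15 to 359 and STEAP3 24 to 481. When the groups of a member were put in order of their means, the libraries of neighbouring groups overlapped in 14 of 16 pairs for STEAP1 and for STEAP2, in 13 of 16 for STEAP3 and in 16 of 16 for STEAP4.

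**Figure D1:**
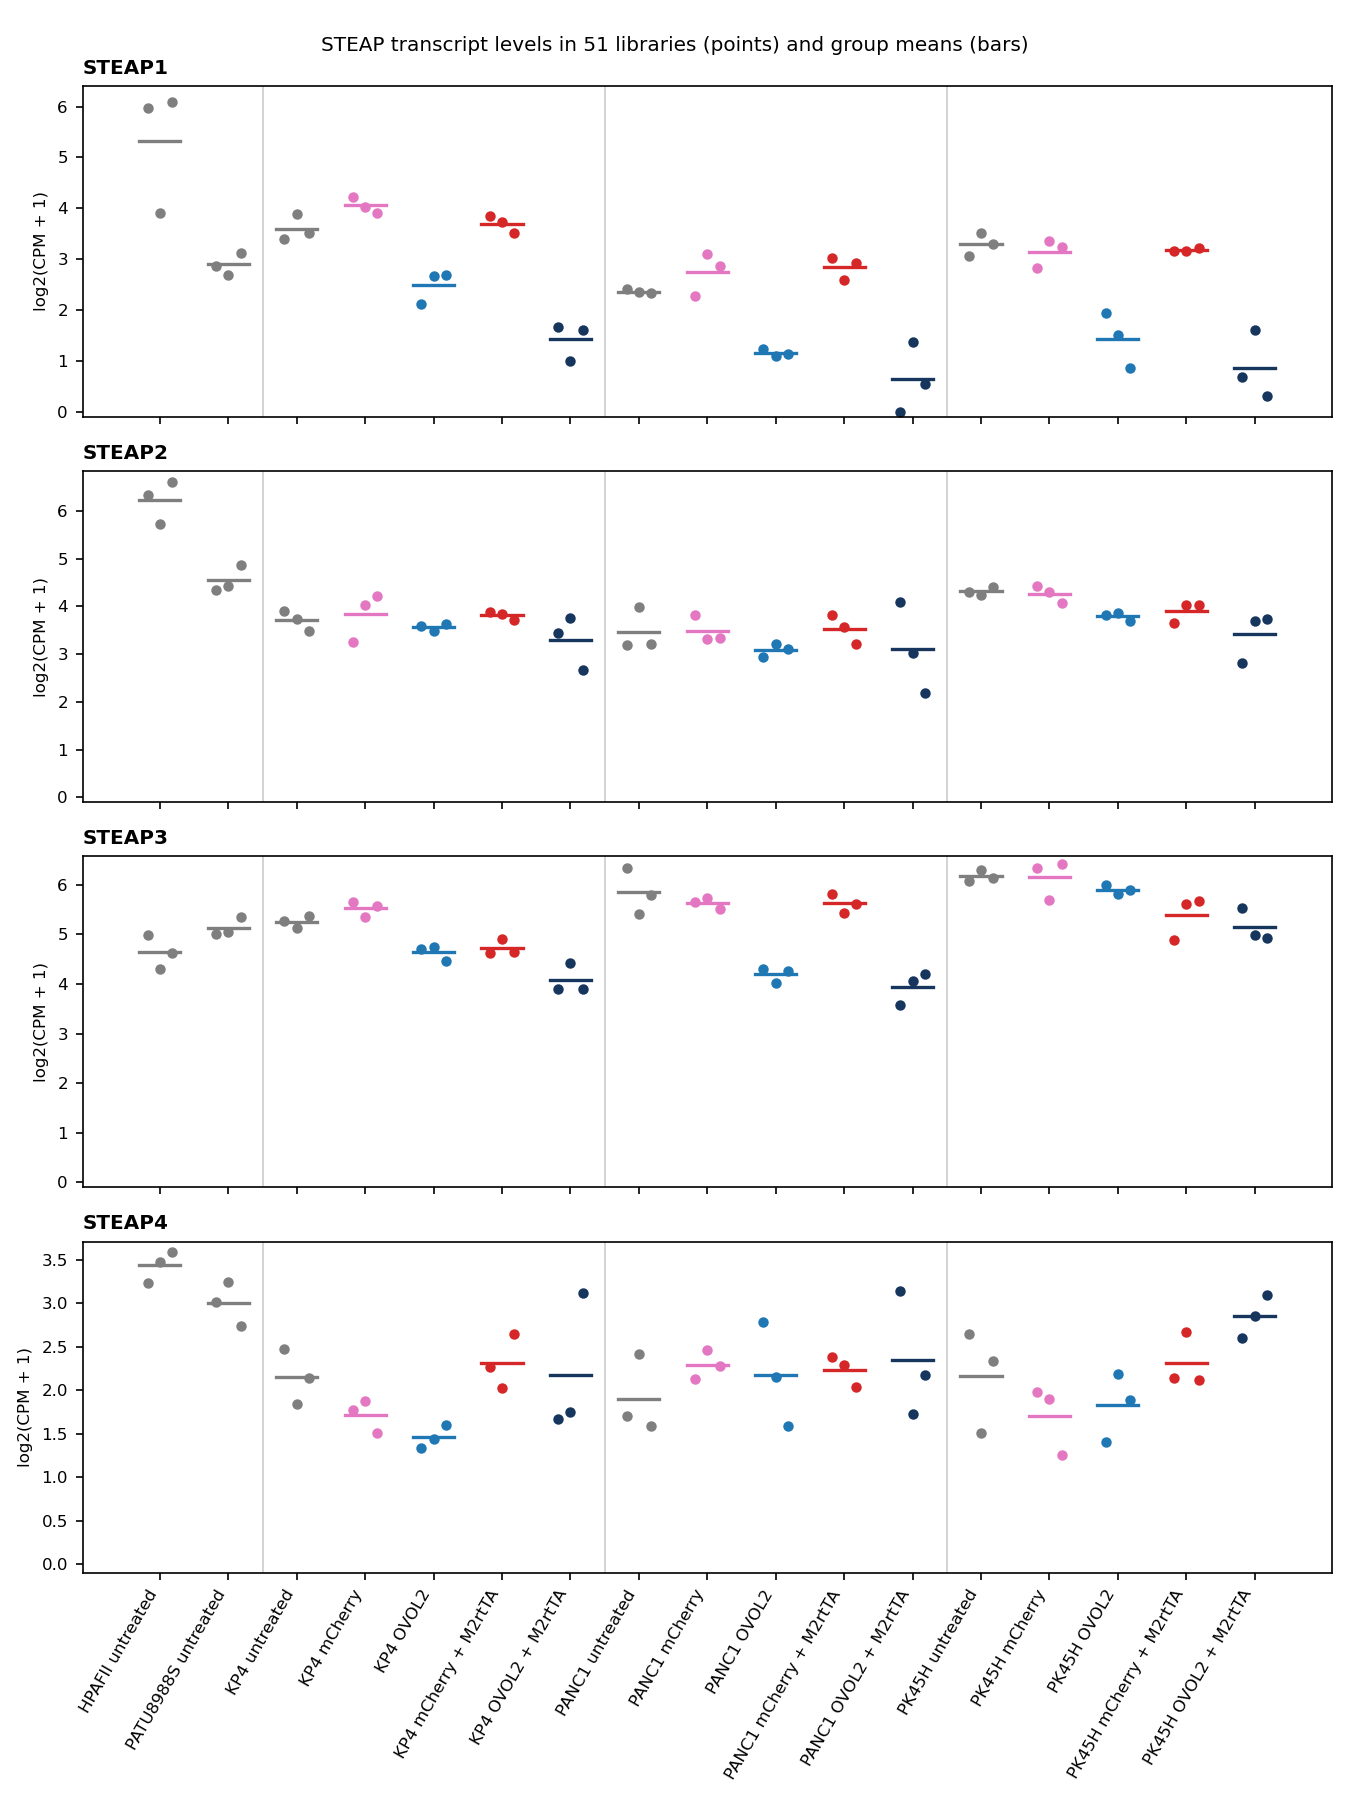
Level of 4 STEAP transcripts in each of 51 libraries (points) and the mean of each group of 3 on the same scale (bars), as log2 of CPM plus 1, in panels with their own scale. STEAP1 in the OVOL2 groups of KP4, PANC1 and PK45H lies below the mCherry groups of the same line, and HPAFII is the highest untreated line for STEAP1, STEAP2 and STEAP4.

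STEAP1, the member without its own NADPH domain, was lower in OVOL2 than in mCherry libraries of each line without M2rtTA. In KP4 the mCherry libraries had 17.7, 15.4 and 14.0 CPM of STEAP1 and the OVOL2 libraries 3.36, 5.33 and 5.48 CPM. In PANC1 the values were 3.83, 7.55 and 6.25 CPM with mCherry and 1.34, 1.15 and 1.21 CPM with OVOL2. In PK45H they were 6.14, 9.31 and 8.50 CPM with mCherry and 2.83, 1.85 and 0.830 CPM with OVOL2. Every OVOL2 library was below every mCherry library of its line, as for 1.99% of the 14943 genes tested, and nothing is read from that share. The fitted STEAP1 change over the lines was −2.02 on the log2 scale (SE 0.23), which is 4.06-fold lower.

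The STEAP1 change was −1.73 in KP4 (SE 0.25), −2.24 in PANC1 (SE 0.52) and −2.14 in PK45H (SE 0.44), in fits of each line. In PANC1 the OVOL2 libraries had 5 or 6 STEAP1 counts each, and the change there was −2.43 to −2.00 with each of the 6 libraries left out in turn. When counts were sampled down to the lowest library total, the STEAP1 change was −2.44 over lines, with −1.67 for KP4, −3.36 for PANC1 and −2.30 for PK45H. In bulk libraries, fewer cells that carry a transcript and less of it per cell cannot be told apart.

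With M2rtTA the STEAP1 values were as follows. KP4 had 13.4, 12.3 and 10.5 CPM with mCherry and 2.18, 1.01 and 2.05 CPM with OVOL2. PANC1 had 7.12, 5.04 and 6.65 CPM with mCherry and 0, 1.58 and 0.470 CPM with OVOL2. PK45H had 7.97, 7.96 and 8.27 CPM with mCherry and 0.607, 2.07 and 0.237 CPM with OVOL2. The 2 groups did not overlap in any line, the OVOL2 libraries being lower, as for 4.83% of all genes, and nothing is read from that share either. The fitted changes were −2.78, −2.90 and −3.07, or −2.91 over lines (SE 0.26). STEAP1 rested on few counts in these OVOL2 libraries: 27 in the 3 of KP4 together, 13 in PANC1 and 12 in PK45H. Whether its change differed between the arms with and without M2rtTA was not tested.

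For STEAP1, mCherry libraries are set beside untreated cells, and beside mCherry libraries with M2rtTA, as a description with no test. Untreated cells had 9.50, 13.8 and 10.5 CPM in KP4, 4.30, 4.10 and 4.02 CPM in PANC1, and 7.42, 10.4 and 8.81 CPM in PK45H. They overlapped with the mCherry libraries in PANC1 and PK45H. In KP4 each mCherry library was higher, with means of 15.7 ± 1.87 against 11.2 ± 2.23 CPM (SD, n = 3). The share of all genes apart in this way was not counted, so nothing is read from it. Over the lines the fitted STEAP1 difference of mCherry from untreated was 0.29 (SE 0.20). STEAP2, STEAP3 and STEAP4 did not pass in that comparison by edgeR, none at an unadjusted p under 0.05, beside 0.489% of all genes that passed. By DESeq2 STEAP2 and STEAP3 did not pass either, and STEAP4 had no adjusted p. Adding M2rtTA to mCherry came with a fitted STEAP1 change of −0.10 (SE 0.20).

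STEAP3, the endosomal ferrireductase, was the other member that fell without M2rtTA, in KP4 and PANC1. In PANC1 it went from 49.3, 52.2 and 44.5 CPM in mCherry libraries to 18.8, 15.2 and 18.1 CPM in OVOL2 libraries. In KP4 it went from 49.5, 39.9 and 46.7 CPM to 25.2, 25.9 and 21.0 CPM. In PK45H it had 79.5, 50.8 and 84.8 CPM with mCherry and 62.8, 54.9 and 58.5 CPM with OVOL2. The groups were apart in KP4 and PANC1 and overlapped in PK45H. How many of all genes were apart within a single line was not counted, so nothing is read from this. The change was −1.47 in PANC1 (SE 0.23, adjusted p = 0.00168), −0.91 in KP4 (SE 0.17, adjusted p = 0.00506) and −0.32 in PK45H (SE 0.23, interval −0.81 to 0.18, adjusted p = 0.445), in edgeR fits in which 5.08%, 6.82% and 8.39% of genes passed. Over lines it was −0.88 (SE 0.13, 95% interval −1.14 to −0.63, adjusted p = 2.54e-06), or 1.84-fold lower. STEAP3 was the 1 of the 3 tested members that passed, beside 18.1% of all genes (9.32% higher, 8.81% lower). The test of a difference between lines gave an adjusted p of 0.0655 by edgeR (unadjusted 0.00231) and 0.0437 by DESeq2, while 2.74% of all genes passed it by edgeR. With counts sampled down in the same way, the change of STEAP3 over lines was −0.72 and no longer passed (adjusted p = 0.291), nor did those in KP4 (−0.55, adjusted p = 0.809) and PANC1 (−1.51, adjusted p = 0.116).

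In the libraries with M2rtTA the same order of lines was seen for STEAP3, with fitted changes of −1.68 in PANC1, −0.65 in KP4 and −0.26 in PK45H, given here as a description. STEAP3 values of the mCherry libraries also stood lower with M2rtTA in KP4 and PK45H. KP4 had 49.5, 39.9 and 46.7 CPM without it and 23.5, 28.9 and 23.9 CPM with it, which is close to the OVOL2 libraries of KP4 without M2rtTA (25.2, 25.9 and 21.0 CPM). PK45H averaged 71.7 ± 18.3 CPM without M2rtTA and 42.1 ± 11.7 CPM with it (SD, n = 3), and PANC1 48.7 ± 3.92 and 48.5 ± 6.59 CPM. The change over lines was −0.54 (SE 0.12). It did not pass by edgeR (adjusted p = 0.0895) but did by DESeq2 (adjusted p = 0.0156) and, by edgeR, without PK45H mCherry replicate 2 (adjusted p = 0.0472). This test was chosen after the values were seen, and 0.0602% of all genes passed it by edgeR.

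STEAP2, which has its own NADPH domain and lies next to STEAP1, had a small negative change that did not pass. Without M2rtTA the mCherry libraries of the 3 lines had 8.54 to 20.6 CPM of STEAP2 (median 15.4) and the OVOL2 libraries 6.71 to 13.6 CPM (median 11.0). The 2 groups were apart in PANC1 and PK45H and overlapped in KP4. The share of all genes apart within a single line was not counted, so nothing is read from this. The change over lines was −0.42 (SE 0.19, interval −0.80 to −0.03, adjusted p = 0.127), and it was −0.34 in KP4, −0.44 in PANC1 and −0.53 in PK45H, with adjusted p-values of 0.579, 0.633 and 0.184. In a fit of only the groups compared, the adjusted p over lines was 0.0458. With M2rtTA the fitted change was −0.40, with 8.31 to 15.4 CPM in mCherry and 3.52 to 16.1 CPM in OVOL2 libraries.

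STEAP4 was the lowest of the members in counts, and its values allow only a wide interval. Without M2rtTA the mCherry libraries had 1.38 to 4.51 CPM of STEAP4 (median 2.71) and the OVOL2 libraries 1.53 to 5.91 CPM (median 2.03). These ranges overlapped in each line. The change over lines was −0.08 (SE 0.28, interval −0.64 to 0.49, adjusted p = 0.896). Its sign turned when single libraries were left out, so that no direction is given. With M2rtTA the fitted change was 0.28 (SE 0.25).

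**Figure D2:**
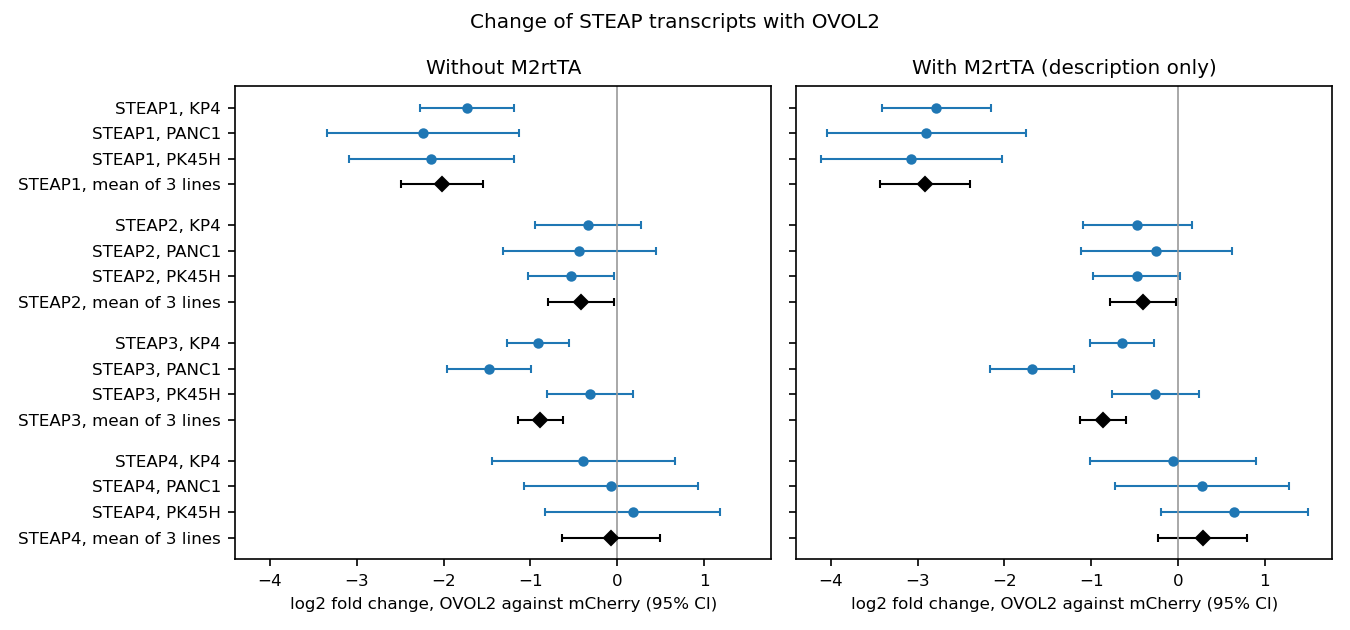
Log2 fold change of 4 STEAP transcripts, OVOL2 against mCherry, in each line (circles) and over 3 lines (diamonds), with 95% intervals. STEAP1 in both panels, and every member in the right panel, with M2rtTA, are a description with no test. STEAP1 lies between −1.73 and −2.24 in the lines without M2rtTA, and the STEAP4 intervals include 0.

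The untreated lines, which the choice of the family did not use, differed in each of the 4 members. HPAFII and PATU8988S were set against the 3 transduced lines in their untreated state. CDH1 averaged 76.3 ± 39.2 CPM in HPAFII and 108.1 ± 8.24 in PATU8988S, against 4.98 ± 1.79 in KP4, 7.25 ± 1.04 in PANC1 and 5.68 ± 2.34 in PK45H (SD, n = 3). In edgeR's quasi-likelihood test 3 members were higher in the first pair of lines and 1 lower, so that 4 of 4 passed beside 34.8% of all genes (17.4% in each direction). Each line is 1 line only, so the comparison covers these lines and not a class of lines.

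STEAP2 was higher in HPAFII and PATU8988S by 1.65 (SE 0.17, adjusted p = 2.58e-06). HPAFII had 80.2, 52.3 and 96.7 CPM and PATU8988S 19.3, 20.6 and 28.4 CPM. KP4, PANC1 and PK45H averaged 12.2 ± 1.91, 10.4 ± 3.80 and 19.0 ± 1.12 CPM. PATU8988S was above KP4 (edgeR adjusted p = 0.0162) and PANC1 (0.00673) but not shown to differ from PK45H (0.532). Single pairs of lines differed in many genes: 32.5%, 29.3% and 28.3% passed between PATU8988S and KP4, PANC1 or PK45H, and 20.2%, 29.9%, 28.7% and 25.2% between HPAFII and PATU8988S, KP4, PANC1 or PK45H.

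STEAP1 was higher in the same pair by 1.27 (SE 0.26, adjusted p = 0.00142), and that rested on HPAFII. HPAFII had 61.7, 14.1 and 67.6 CPM of STEAP1, where replicate 2 held 18 counts, and PATU8988S had 6.33, 5.48 and 7.77 CPM. PATU8988S was not shown to differ from KP4 (−0.77, adjusted p = 0.170), PANC1 (0.62, 0.340) or PK45H (PK45H higher by 0.46, 0.450), whereas HPAFII was above each other line (adjusted p at most 0.000579). Without HPAFII replicate 2 the difference was 1.46 (adjusted p = 1.91e-06). With counts sampled down to the lowest total it was 0.73 and did not pass (adjusted p = 0.307).

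STEAP4 was higher in HPAFII and PATU8988S by 1.32 (SE 0.25, adjusted p = 0.000742). HPAFII had 8.41, 10.2 and 11.0 CPM and PATU8988S 7.09, 8.45 and 5.68 CPM, and the highest library of the other 3 lines had 5.27 CPM. The share of all genes with lines apart in this way was not counted, and nothing is read from it. By edgeR PATU8988S was above PANC1 (adjusted p = 0.0272) but not shown to differ from KP4 (0.0523) or PK45H (0.0831). HPAFII was above each of these 3 lines (adjusted p at most 0.0137). The call for the pair of lines did not pass after the same sampling (1.04, adjusted p = 0.400).

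STEAP3 went the other way and was lower in HPAFII and PATU8988S by 0.87 on the log2 scale (change −0.87, SE 0.15, adjusted p = 0.000461). HPAFII had 30.7, 18.7 and 23.7 CPM and PATU8988S 31.2, 32.0 and 39.4 CPM. PK45H was highest at 71.2 ± 5.96 CPM, followed by PANC1 at 58.6 ± 19.4 and KP4 at 37.2 ± 3.16 CPM (SD, n = 3). PK45H was not shown to differ from PANC1 (0.27, interval −0.22 to 0.75, with 25.6% of all genes past the threshold), nor PATU8988S from KP4 (−0.10, interval −0.60 to 0.39). A test over all 5 lines with 4 degrees of freedom gave adjusted p-values of 1.02e-05 for STEAP1, 1.08e-06 for STEAP2, 0.000341 for STEAP3 and 0.00443 for STEAP4, beside 57.8% of all genes that passed it. The STEAP4 value was 0.551 with counts sampled down.

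Side by side and with no test, the STEAP1 change was −2.02 with the OVOL2 label without M2rtTA, while among untreated lines HPAFII stood above the transduced lines and PATU8988S, which had the highest CDH1, was not shown to differ from them. For STEAP3 the values were −0.88 with the OVOL2 label and −0.87 for HPAFII and PATU8988S. By line the order differed: PK45H had the smallest STEAP3 change with OVOL2 (−0.32) but stood furthest above HPAFII (1.50). By edgeR KP4 was not shown to differ in STEAP3 from HPAFII (0.54, adjusted p = 0.102) or PATU8988S (adjusted p = 0.788).

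Over the 17 group means of log2 CPM (prior count of 2), the members were compared by Pearson correlation, as a description, since the groups share lines and depth. STEAP1 and STEAP2 had r = 0.74, STEAP2 and STEAP4 0.54, STEAP1 and STEAP3 0.35, and STEAP3 and STEAP4 −0.28. Among 10276 other genes with a mean of at least 5 CPM, those most like STEAP1 were TM7SF3 (0.95), DTL (0.92), VANGL1 (0.89), MTHFD1 (0.89) and ERH (0.88). Those most like STEAP2 were HCAR1, SMAGP and NUDT4 (0.88 each). Those most like STEAP3 were CISD1 (0.90), which encodes an iron-sulfur protein of the outer mitochondrial membrane, EBPL (0.90) and ESD (0.87). Those most like STEAP4, among 10277, were GOLGA2P5 (0.86), TSIX (0.85) and TMCO1 (0.84). TSIX lies antisense to another RNA gene, and the counts cannot tell the 2 apart without strand.

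Of the genes around the STEAP loci, 1 passed the threshold without M2rtTA. RefSeq places 69 genes within 500 kb of a member, of which 28 had a row and 17 were tested. It was 1 of the 17, a lower one, beside 8.81% of all genes lower: DBF4, a regulator of DNA replication that lies 361.3 kb from STEAP4 (−0.60, SE 0.13, adjusted p = 0.00131). DBF4 did not pass with counts sampled down (−0.56, adjusted p = 0.612). The 3 tested genes nearest to STEAP1 and STEAP2 did not pass: CFAP69 changed by −0.28 (adjusted p = 0.290), CLDN12 by 0.26 (0.311) and LOC101927446 by 0.22 (0.268). With M2rtTA 6 of the 17 passed and were lower, beside 17.3% of all genes lower, LOC101927446 among them (−0.49, adjusted p = 0.0044), and CFAP69 was at 0.036.

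**Figure D3:**
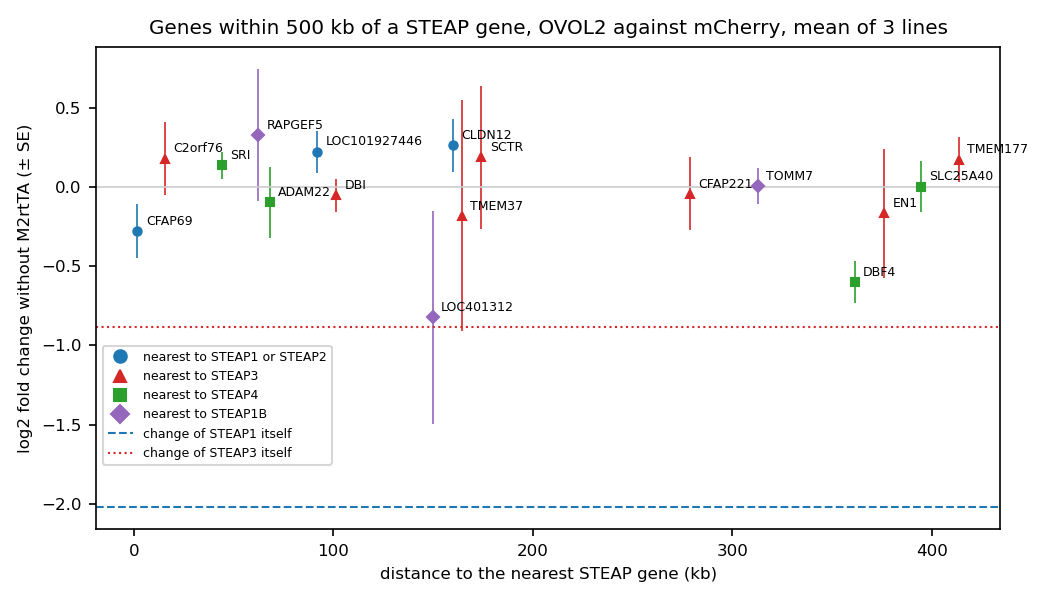
Log2 fold change over 3 lines without M2rtTA (± SE) of 17 genes within 500 kb of a STEAP gene, against the distance to the nearest member in kb. The dashed line is STEAP1 itself at −2.02, the dotted line STEAP3 at −0.88, and DBF4 at −0.60 is the one neighbour that passed the threshold.

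The other genes of iron, heme and copper handling were then compared in the same libraries, from lists of 74 genes of which 69 were tested. Without M2rtTA 13 were higher and 10 lower in OVOL2 libraries (33.3%, against 18.1% of all genes), with a median change of −0.002 against 0.001 for all genes. With M2rtTA 9 were higher and 14 lower, again 33.3%, against 32.9% of all genes (15.7% higher, 17.3% lower). With counts sampled down to the lowest total the numbers without M2rtTA were 4 higher and 3 lower, and with M2rtTA 5 and 4. The share of all genes that passed at that depth is not given, so nothing particular to these lists is read from the drop. Of the genes named here from these lists, ACO1, ATOX1, CCS, CISD1, CYB561, HFE, HMOX1, HMOX2, LCN2, MT2A, NCOA4 and TF then no longer passed without M2rtTA, with adjusted p from 0.0521 for LCN2 to 0.863 for HFE. FTH1, FTL, PCBP2, BLVRA, SLC48A1, ISCU and MT1E did.

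Both ferritin chains, which store iron, were higher. FTH1 averaged 1012 ± 46.0 CPM with mCherry and 1894 ± 216.4 with OVOL2 in KP4, 939.1 ± 48.4 and 1966 ± 38.9 in PK45H, and 1219 ± 168.7 and 1367 ± 1.52 in PANC1 (SD, n = 3). Its change over lines was 0.73 (SE 0.06, edgeR adjusted p = 1.37e-11), and it differed between lines (adjusted p = 0.000364), with no pass in PANC1 alone (0.18, adjusted p = 0.414). FTL was higher by 0.86 (SE 0.09, adjusted p = 3.75e-09), with no pass in PANC1 alone (0.39, adjusted p = 0.179). NCOA4, which carries ferritin to lysosomes, was higher by 0.48 (adjusted p = 0.0355, above 0.05 when any of 10 single libraries was left out, and with no filter on low counts), and PCBP2, an iron chaperone, lower by 0.23 on the log2 scale (change −0.23, adjusted p = 0.0148). The iron exporter SLC40A1 did not pass (−0.61, adjusted p = 0.366) and had 0.671 to 2.24 CPM in these group means. In storage and export, 3 of 8 tested genes were higher and 1 lower.

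Among iron uptake genes, in which STEAP3 has its place, 1 of 10 was higher and 2 were lower. The transferrin receptor TFRC had 14.6 ± 2.34 CPM with mCherry and 14.8 ± 2.03 with OVOL2 in KP4, and its change over lines was 0.16 (SE 0.13, adjusted p = 0.450). The ferrous iron transporter SLC11A2 was at 0.28 (adjusted p = 0.289), and passed (0.53, adjusted p = 0.0133) without PK45H mCherry replicate 2. LCN2, which binds iron-carrying siderophores, was higher by 1.50 (SE 0.16, adjusted p = 6.15e-09). In edgeR fits of each line LCN2 passed in PK45H (3.06, adjusted p = 5.73e-07) but not in PANC1 (0.86, 0.134) or KP4 (0.52, 0.484). TF, transferrin itself, was lower (−1.97, SE 0.61, adjusted p = 0.0203), but mCherry groups varied widely, with 270.6 ± 403.6 CPM in PANC1, and its call was lost without KP4 mCherry replicate 2, PANC1 mCherry replicate 1 or PK45H mCherry replicate 1. HFE, which binds the transferrin receptor and stands in the uptake and the regulator list, was lower by 0.53 (change −0.53, adjusted p = 0.0334), a call lost without any of 7 libraries and with no filter on low counts.

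ACO1, the cytosolic aconitase that turns into an iron-responsive RNA-binding protein when iron is low, fell by 0.81 on the log2 scale (SE 0.12, adjusted p = 3.13e-06). It went from 25.7 ± 3.78 to 11.8 ± 1.45 CPM in PK45H, the line with the largest change. In edgeR fits of each line ACO1 passed in PK45H (−1.15, adjusted p = 0.00131) but not in KP4 (−0.63, 0.0591) or PANC1 (−0.72, 0.132). With HFE, 2 of 5 tested iron regulators were lower and 0 higher. Of 7 other metalloreductases, 1 passed: CYB561, of the cytochrome b561 family, was higher by 0.63 (SE 0.17, adjusted p = 0.00619), and CYBRD1, the duodenal ferrireductase, did not pass (−0.20, SE 0.17, adjusted p = 0.475).

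The heme list had 5 genes higher and 3 lower of 16. BLVRA, the biliverdin reductase, fell by 1.74 on the log2 scale (SE 0.11, adjusted p = 4.38e-14), and its means in KP4 were 79.3 ± 11.1 CPM (mCherry) against 26.3 ± 2.90 CPM (OVOL2). They were 64.4 ± 8.31 and 23.7 ± 3.53 CPM in PANC1, and 63.7 ± 6.56 and 13.5 ± 2.16 CPM in PK45H. HMOX1, the inducible heme oxygenase, was higher by 0.93 (SE 0.14, adjusted p = 1.04e-05), with changes of 1.36 in KP4, 1.30 in PANC1 and 0.08 in PK45H. The heme transporter SLC48A1 was higher by 0.61 (adjusted p = 3.01e-05) and HMOX2, the constitutive heme oxygenase, by 0.54 (adjusted p = 0.000256).

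In the mitochondrial iron list, 1 of 9 was higher and 1 lower: ISCU, the scaffold on which iron-sulfur clusters are built, rose by 0.44 (adjusted p = 8.53e-06) and CISD1 fell by 0.49 on the log2 scale (adjusted p = 0.000365). CISD1, the gene most like STEAP3 over the groups, averaged 45.9 ± 2.45 CPM with mCherry and 26.4 ± 3.10 with OVOL2 in KP4, and 56.9 ± 8.25 and 37.3 ± 2.22 CPM in PANC1. In PK45H its OVOL2 mean was 61.9 ± 4.13 CPM against 66.4 CPM with mCherry. Of 15 copper genes, 2 were higher and 2 lower. The metallothioneins MT1E (−1.37, SE 0.17, adjusted p = 1.95e-07) and MT2A (−0.63, SE 0.21, adjusted p = 0.0312) fell, and the copper chaperones CCS (0.45, adjusted p = 0.00388) and ATOX1 (0.32, adjusted p = 0.00832) were higher. Metallothionein transcripts are alike, so reads of MT1E and MT2A may be split with their relatives, and the MT2A call was lost without any of 8 single libraries.

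In the arm with M2rtTA the fitted changes were 0.95 for FTH1, 0.85 for FTL, 0.84 for HMOX1, −2.05 for BLVRA, −0.72 for ACO1, −1.09 for CISD1, −2.28 for MT1E and −1.41 for MT2A, each past the threshold. TFRC (−0.04) and CYBRD1 (−0.18, adjusted p = 0.464) did not pass there either, and neither did CYB561 (0.33, adjusted p = 0.128). Several calls made without M2rtTA were not met in this arm. Iron uptake had 2 genes higher and 0 lower, so TF and HFE were not lower past the threshold. Storage and export had 2 higher, FTH1 and FTL, and 0 lower, so NCOA4 and PCBP2 did not pass. Copper had 1 higher and 5 lower, so CCS and ATOX1 did not both pass as higher.

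**Figure D4:**
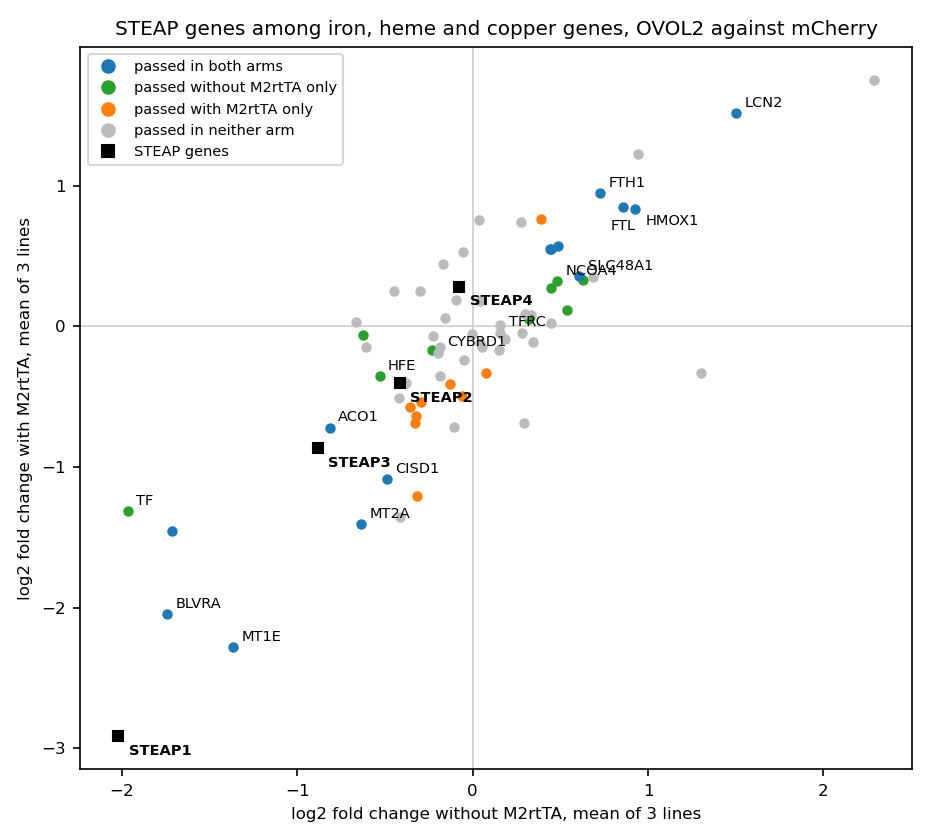
Log2 fold change over 3 lines of 69 iron, heme and copper genes (circles, coloured by the arm in which they passed an adjusted p of 0.05) and of 4 STEAP genes (squares), OVOL2 against mCherry, without M2rtTA on the horizontal and with it on the vertical axis. STEAP1, which was chosen for its fall with OVOL2, lies at −2.02 and −2.91, and its place below the 69 genes is not read as a result. BLVRA, MT1E and LCN2 are among the genes that passed in both arms.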

How the data were processed

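The authors deposited 1 table of raw counts per gene symbol, whole numbers for 51 libraries, and the submitters' processing notes name kallisto 0.44.0 and GRCh38. Groups came from the sample titles and treatment labels. Members, gene lists and tests were chosen with earlier results of these data known. The unit of the deposited counts was left as it was, with all 51 columns matched to samples. Counts were fitted in R 4.3.3 with edgeR 4.0.16 (filterByExpr by group, TMM, quasi-likelihood test, two-sided): 45 libraries in 15 groups for means over lines, 15 libraries per line, and 15 untreated libraries. The threshold was a Benjamini-Hochberg adjusted p of 0.05 over all genes tested. Intervals use the fit's own degrees of freedom and are not adjusted. The scripts were tested on simulated data.

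Named genes were the members, OVOL2, CDH1, EPCAM, ZEB1, VIM, TFRC, FTH1, FTL, SLC11A2, CYBRD1 and SLC40A1, up to 4 genes per iron, heme or copper list with the smallest p without M2rtTA among those past the threshold, neighbours past it, and the genes most correlated with each member. CFAP69, CLDN12 and LOC101927446, nearest to STEAP1, were named after their values were seen. Replicate numbers did not pair libraries, and the replicates of each group differed by more than sampling noise. As alternatives, DESeq2 1.42.0, RLE size factors, counts sampled down to the lowest total, a filter at a mean of 10 or none, a replicate block (edgeR), other sets of libraries in the fit, a prior count of 0.5, and leaving out each library were run. The test of M2rtTA in mCherry libraries was added after seeing the data. Symbols were matched to RefSeq GRCh38.p14 (24602 of 25421). Precision is limited by counting error and by the spread between replicates.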

Additional observations from a re-analysis of the deposited data

Results flagged for a closer look

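The OVOL2 effect without M2rtTA differed between KP4, PANC1 and PK45H for 2 of the named iron genes, by edgeR's test of the difference itself over 45 libraries. LCN2 (adjusted p = 5.97e-05) changed by 3.06 in PK45H (SE 0.18), 0.86 in PANC1 (SE 0.31) and 0.52 in KP4 (SE 0.37). FTH1 (adjusted p = 0.000364) changed by 1.04 in PK45H (SE 0.10), 0.91 in KP4 (SE 0.11) and 0.18 in PANC1 (SE 0.11).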

How the results depend on the processing

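Of 1600 alternative values, 1505 were counted as the same. For values with a p-value this meant the same direction and side of the threshold, STEAP1 with OVOL2 included, though no test of it is read here. For list counts it meant a ratio to the main count within a set limit. For the members' values with OVOL2 and M2rtTA it meant the same sign and a shift below the pooled SD of the libraries. The STEAP1 change over lines without M2rtTA was negative in each, from −2.44 to −2.02 and, with 1 library left out, from −2.15 to −1.92. With counts sampled down to the lowest library total, calls were lost for 12 named iron, heme and copper genes, CDH1 and DBF4, as given above, and for STEAP3 in KP4 (−0.55) and PANC1 (−1.51). Other values that changed side or direction were STEAP3 over lines (−0.72, adjusted p = 0.291), STEAP1 (0.73) and STEAP4 (1.04) in the untreated lines, the STEAP4 test over 5 lines (adjusted p = 0.551), STEAP2 in PK45H (0.17), STEAP3 with mCherry against untreated (−0.27), STEAP1 with M2rtTA in mCherry libraries (0.23), and STEAP2 (0.23) and STEAP4 (−0.21) with OVOL2 and M2rtTA. The list counts became 4 higher and 3 lower without M2rtTA and 5 and 4 with it, with no share of all genes beside them. Sampling down leaves fewer counts, and no other cause was tested. STEAP4 within lines gave no value in that setting. STEAP2 over lines passed in a fit of only the groups compared (−0.42, adjusted p = 0.0458), and the difference of STEAP3 between lines passed by DESeq2 (0.0437); the cause was not tested. For the untreated lines a fit of only the groups compared is the main fit. Leaving out 1 library turned the sign of values near 0: STEAP2 (−0.031 to 0.16) and STEAP3 (−0.045 to 0.11) with mCherry against untreated, STEAP4 over lines (−0.23 to 0.020), in PANC1 (−0.52 to 0.27) and in PK45H (−0.14 to 0.42), and OVOL2 itself over lines, to as high as 0.20. Same-numbered libraries correlated over 0.1 in 7 of 90 pairs, and those of other numbers in 28 of 180, so the numbers are labels only. With a replicate block STEAP1 over lines was −2.02, a value given with no test. By edgeR with the block, STEAP3 was −0.88 (adjusted p = 5.19e-06), STEAP2 −0.42 (0.129) and STEAP4 −0.07 (0.904), so these 3 calls did not change. The list counts were 13 higher and 10 lower. The block was run for the members' results but for single pairs of untreated lines, for the list counts and for the named genes without M2rtTA. It changed no call among those that are tested here.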

Other observations

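Between the untreated lines 33.3% of the 69 tested iron, heme and copper genes passed, beside 34.8% of all genes. Nothing particular to iron genes is read from that share, and the genes named here are examples. In edgeR's quasi-likelihood test the iron exporter SLC40A1 was higher in HPAFII and PATU8988S than in KP4, PANC1 and PK45H by 3.22 (SE 0.38, adjusted p = 1.32e-05), with 6.68 ± 4.44 CPM in HPAFII, 18.5 ± 5.06 in PATU8988S and 1.00 ± 0.879 in KP4 (SD, n = 3). HEPH, the ferroxidase that works beside it, was higher by 3.20 (SE 0.58, adjusted p = 0.000554), and TFRC by 0.65 (SE 0.15, adjusted p = 0.00449). LCN2 was higher by 3.63 (SE 0.21, adjusted p = 6.52e-09). MT1E (−2.12) and MT2A (−1.58) were lower and MT1F (1.34) and MT1G (2.57) higher. Of the 69 genes tested, 14 were higher and 9 lower, beside 34.8% of all genes. HEPH, MT1F and MT1G were named after their values were seen.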
